A study of Drosophila melanogaster with 6 samples.

Results

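The segment polarity genes are the set examined here, namely en, inv, hh, ptc, ci and smo on the Hedgehog side of the circuit and wg, arm, nkd and gsb on its Wingless side. Members were the probe sets carrying 1 of these 10 symbols, with 1 probe set per gene. A uniquely named probe set was found for 8 of the 10 genes, out of 11982 such genes on the array, and wg and arm were not analysed here. The Hedgehog side was therefore measured at all 6 of its genes and the Wingless side at only 2 of 4, nkd and gsb. Each of the 8 measured genes had a single probe set, so no choice between probe sets was made.

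Total RNA from whole Drosophila melanogaster embryos was measured on 6 Affymetrix arrays. The mutant group held 3 samples of genotype insv[23B], a mutant allele of Insensitive, and the wild-type group held 3 samples of w[1118], a white-eyed laboratory strain. Per the labels, both groups were collected at 6 to 8 h and kept at 25 °C, and the labels give neither what the allele removes nor whether the 3 samples of a genotype came from separate collections. The spread behind the p-values below is thus that between samples and could be a technical one.

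In the ventral and dorsal epidermis of the fly embryo, each segment is kept in register by a loop between neighbouring rows of cells. Cells of the posterior compartment express the homeodomain repressors Engrailed and Invected and secrete Hedgehog, while the adjacent anterior cells receive Hedgehog through Patched and Smoothened and activate the zinc-finger factor Cubitus interruptus. Those anterior cells transcribe wingless, whose secreted product acts through Armadillo (beta-catenin) to maintain engrailed, and Naked cuticle limits that response. Gooseberry, a paired-class homeodomain factor, helps to maintain wingless. Insensitive is a BEN-domain repressor of transcription found in neural precursors.

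The gene that defines the mutant was checked first. The insv probe set read 4, 3.6 and 4.2 on the mutant arrays, against 10.9 on each wild-type array (log2 level). The genotypes lay far apart, with a log2 difference of -6.97 ± 0.16 (SE, limma adjusted p = 3.26e-06), so the level of the gene went with the labels. The position of its probes relative to the mutation was not analysed here. Arrays of 1 genotype correlated at 0.996 to 0.998 across tested probe sets, and arrays of different genotype at 0.905 to 0.906. The Bacillus spike-in controls, which measure added RNA, also differed: each of the 23 sets was lower on every mutant array than on every wild-type array (median -1.43, range -1.77 to -0.90, log2). Genotype and the handling of the arrays cannot be told apart, because the 3 arrays of a genotype had this shift in common. Directions below are therefore also given on a spike-in scale, which sets the mean of these controls equal on all arrays and places the median difference of all tested probe sets at 1.29, against -0.10 on the deposited scale.

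Among the measured segment polarity genes inv, hh and gsb fell in the mutant, while en, ci, smo and nkd did not pass the test, and on the spike-in scale all 7 of these genes were instead called higher. The falls were of similar size, from -0.57 to -0.47 on the log2 scale, and left mutant levels at 67.5% to 72.4% of wild type. No member differed by as much as 2-fold, and the 95% intervals of the 7 tested members lay between -0.81 and 0.29, so a 2-fold change was outside each of them on the deposited scale. In bulk RNA of whole embryos, fewer cells of a type and less RNA per cell cannot be told apart. A gene was tested if it reached a log2 level of 4 on at least 3 arrays, and was called where its limma p, adjusted by Benjamini-Hochberg over all 8334 tested probe sets, was under 0.05. All 7 tested members reached that level on all 6 arrays, so none was tested through 1 genotype alone, and ptc did not reach it on any array.

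The count of falls was close to that of the array as a whole. Of the 7 tested members 3 were called lower (42.9%), where 40.8% of all tested probe sets were called lower, and 0 were called higher, where 24.7% of all were. Calls in either direction took in 65.5% of tested probe sets. After median centring the members' 3 lower and 2 higher calls stood beside 29.2% and 31% of all probe sets, and after quantile normalization their 3 lower and 0 higher calls stood beside 42.3% and 24.6%. On the spike-in scale 7 members were called higher and 0 lower, beside 92.6% and 0.612% of all. Mutant values lay wholly below wild-type values for 3 members, and did so at 40.7% of tested probe sets. The median difference over all tested probe sets was -0.10, with quartiles of -0.37 and 0.20. A called difference of at least 2-fold was seen at 16.2% of tested probe sets and at 0 of these 7 members. The histogram of all differences shows where the members lie in that distribution.

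**Figure D1:**
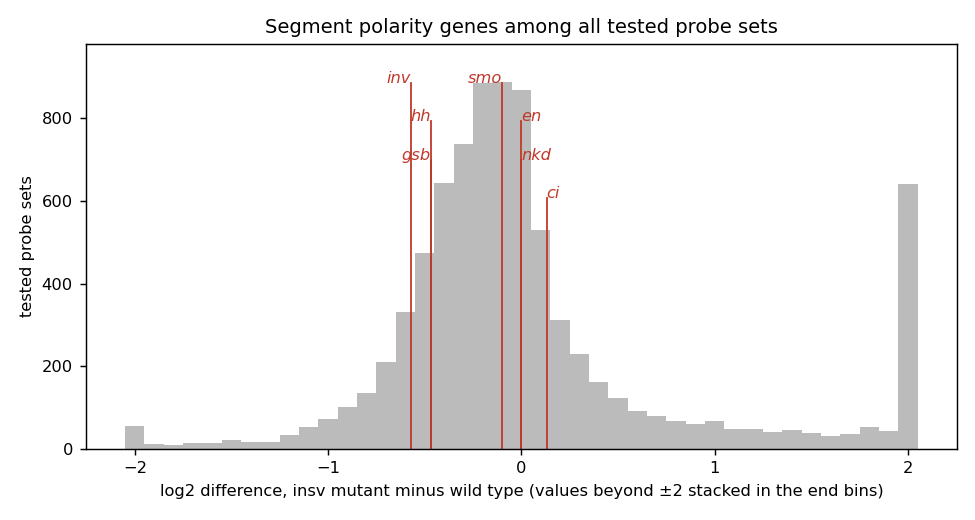
Histogram of the log2 difference (insv mutant minus wild type, deposited scale) over the 8334 tested probe sets, with the 7 tested segment polarity genes marked by red lines. The members sit between -0.57 (inv) and 0.13 (ci), inside the bulk of the distribution, and none lies among the large rises stacked at the right end. On the spike-in scale the whole distribution lies further right, with its median at 1.29.

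Engrailed and Invected, encoded by adjacent paralogous genes on chromosome 2R, mark the posterior compartment. The en probe set read 11 on all 3 mutant arrays and 11 on all 3 wild-type arrays. The levels were therefore the same to the 1 decimal of the deposited values, with a difference of 0.00 and a 95% interval of -0.06 to 0.06 that rests on the spread pooled over probe sets, since en itself had none. The inv probe set read 7.6, 7.6 and 7.7 in the mutant, against 8.3, 8 and 8.3 in wild type. All 3 mutant values lay below all 3 wild-type values, and inv fell by a log2 difference of -0.57 ± 0.10 (SE, adjusted p = 0.00433), or to 67.5% of wild type. Both were higher on the spike-in scale, en by 1.39 and inv by 0.82. Both probe sets carry the array suffix for probes that match several transcripts, and signal from 1 paralog on the probes of the other was not tested.

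The paralogs can also be set against each other on each array, a difference that no shift of a whole array alters. The en minus inv difference was 3.4, 3.4 and 3.3 on the mutant arrays, against 2.7, 3 and 2.7 on the wild-type arrays. The genotypes did not overlap, and the shift of 0.57 had an exact permutation p of 0.1, two-sided (adjusted p = 0.2 over 6 pairs), the smallest p that 3 arrays against 3 can give. Size differences between the probe sets themselves have no meaning here, because levels of different probe sets are not on 1 scale.

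The ligand gene hh, transcribed in the same posterior cells, was lower in the mutant. It read 8.6, 8.7 and 8.8 on the mutant arrays, against 9.1, 9.1 and 9.3 on the wild-type arrays, with a gap of 0.3 between the highest mutant and the lowest wild-type value. The means were 8.70 ± 0.10 in the mutant and 9.17 ± 0.12 in wild type (SD, n = 3 each), and the log2 difference was -0.47 ± 0.08 (SE, limma adjusted p = 0.00464). Of all tested probe sets 18.8% had a difference this low or lower. On the spike-in scale hh was higher by 0.92. The shifts of hh and inv were close: hh minus inv was 1, 1.1 and 1.1 in the mutant, against 0.8, 1.1 and 1 in wild type, and these overlapped (exact permutation p = 0.7, adjusted p = 0.7).

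The genes that receive and transduce Hedgehog, ptc, smo and ci, gave no call on the deposited scale. Patched is the Hedgehog receptor and is itself a transcriptional target of the signal. Its probe set read 3.1, 3 and 3.3 in the mutant, against 3.6, 3.3 and 3.3 in wild type, not far above the floor of 2.2 at which unexpressed probe sets lie. The values met at 3.3. The difference was -0.27 with a 95% interval of -0.61 to 0.08 when low probe sets were included (limma adjusted p = 0.265), and it was -0.79 after quantile normalization and 1.12 on the spike-in scale. The quantile value is not particular to ptc. Other genes at low levels moved down alike, such as eve (from -0.03 to -0.70) and Notum (from -0.07 to -0.78), while H15 at the floor stayed at 0.00. Values this close to the floor can understate differences, so little can be read from ptc.

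Smoothened is the transmembrane protein that Patched holds inactive. The smo probe set read 10.2, 10.2 and 10.3 in the mutant, against 10.3, 10.3 and 10.4 in wild type. The groups touched at 10.3, and the difference of -0.10 (95% interval -0.22 to 0.02, limma adjusted p = 0.112) equalled the median of all tested probe sets. It was 0.00 after centring arrays on their median and 1.29 on the spike-in scale.

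Cubitus interruptus, the transcription factor at the end of the pathway, is made in anterior cells and is repressed by Engrailed. The ci probe set read 12.9, 12.9 and 13 in the mutant, against 12.8, 12.7 and 12.9 in wild type. The groups met at 12.9, and the difference of 0.13 (95% interval -0.03 to 0.29) did not pass (limma adjusted p = 0.112). It was the only positive difference among the 8 genes on the deposited scale. After median centring it was 0.23 and passed (limma adjusted p = 0.0239), it passed without wild-type replicate 3 (difference 0.18, adjusted p = 0.0433), and on the spike-in scale it was 1.52.

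Relative to smo on the same array, ci stood higher on every mutant array. The ci minus smo difference was 2.7 on each mutant array, against 2.5, 2.4 and 2.5 on the wild-type arrays. These values did not overlap, and the shift of 0.23 again had the smallest p the design allows (exact permutation p = 0.1, adjusted p = 0.2). For hh minus ptc, 5.5, 5.7 and 5.5 in the mutant overlapped 5.5, 5.8 and 6 in wild type (exact permutation p = 0.4, adjusted p = 0.48). Because ptc lay near the floor, this overlap does not show that hh and ptc shifted alike.

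**Figure D2:**
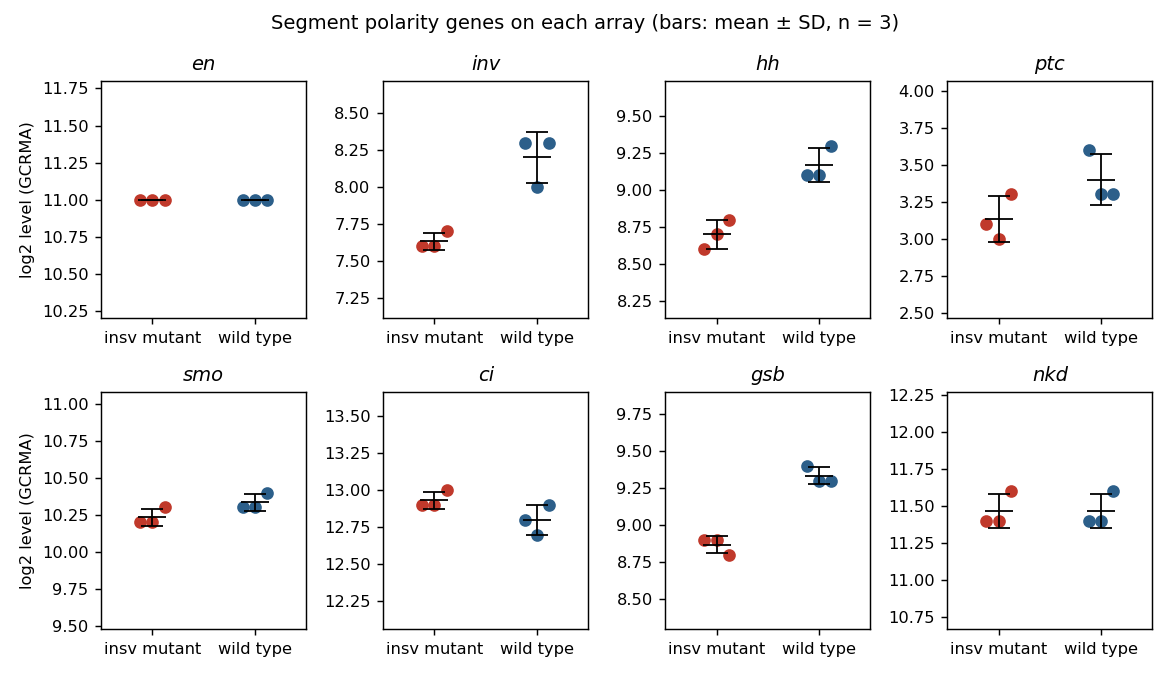
Log2 level of the 8 measured segment polarity genes on each array (points), with insv mutant arrays in red at the left and wild-type arrays in blue at the right of each panel; bars are the mean ± SD of 3 arrays and every vertical axis spans the same range. The genotypes separate for inv, hh and gsb, and meet or coincide for en, ptc, smo, ci and nkd.

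On the Wingless side gsb fell in the mutant and nkd did not pass. The gsb probe set read 8.9, 8.9 and 8.8 on the mutant arrays, against 9.4, 9.3 and 9.3 on the wild-type arrays. The groups were 0.4 apart, and the log2 difference of -0.47 ± 0.05 (SE, limma adjusted p = 0.000637) had the smallest p among the members. On the spike-in scale gsb was higher by 0.92. The nkd probe set, for the feedback inhibitor of Wingless signalling, read 11.4, 11.4 and 11.6 in the mutant, against 11.4, 11.4 and 11.6 in wild type. These values were the same in both genotypes, giving a difference of 0.00 (95% interval -0.22 to 0.22, adjusted p = 1) on the deposited scale and 1.39 on the spike-in scale. Within arrays, gsb minus nkd was -2.5, -2.5 and -2.8 in the mutant, against -2, -2.1 and -2.3 in wild type. The shift of -0.47 came with values that did not overlap (exact permutation p = 0.1, adjusted p = 0.2).

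The neighbour of gsb on chromosome 2R is its paralog gsb-n, a paired-class gene of the nervous system. It read 8.4, 8.3 and 8.3 in the mutant, against 8.7 on each wild-type array. It fell by 0.37 on the log2 scale (SE 0.04, limma adjusted p = 0.000621), against a rise of 1.02 on the spike-in scale. The gsb minus gsb-n difference was 0.5, 0.6 and 0.5 in the mutant and 0.7, 0.6 and 0.6 in wild type. It overlapped at 0.6, and its shift of -0.10 was not resolved (exact permutation p = 0.3, adjusted p = 0.45). The pairs of gsb with gsb-n, hh with inv and gsb with nkd were chosen after their values were seen.

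**Figure D3:**
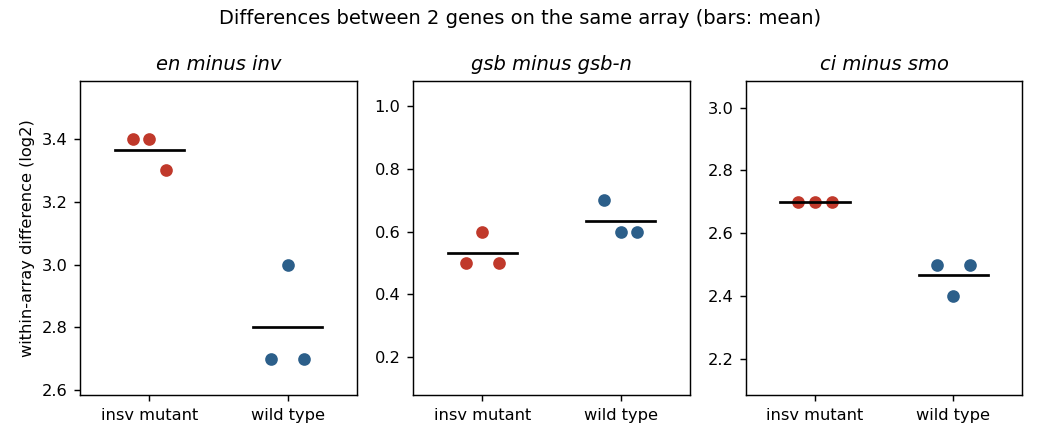
Within-array differences (log2) for en minus inv, gsb minus gsb-n and ci minus smo, with 3 insv mutant arrays in red at the left and 3 wild-type arrays in blue at the right; horizontal bars are means. The en minus inv and ci minus smo values are higher on every mutant array than on every wild-type array, and the gsb minus gsb-n values meet at 0.6.

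The 2 sides of the circuit were set side by side as medians. The Hedgehog side had a median difference of -0.18 over its 6 genes, with ptc near the floor, or -0.10 over the 5 tested genes, 2 of which were called lower. The Wingless side had a median of -0.23 over the 2 measured genes, with 1 of 2 called lower. Each side thus held a gene near 0 and a gene lower by about the same amount, and on the spike-in scale the medians were 1.20 for the Hedgehog side and 1.15 for the Wingless side. The Wingless side lacks its ligand gene and arm, so the medians compare unequal parts of the pathways and no test of the sides was made.

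**Figure D4:**
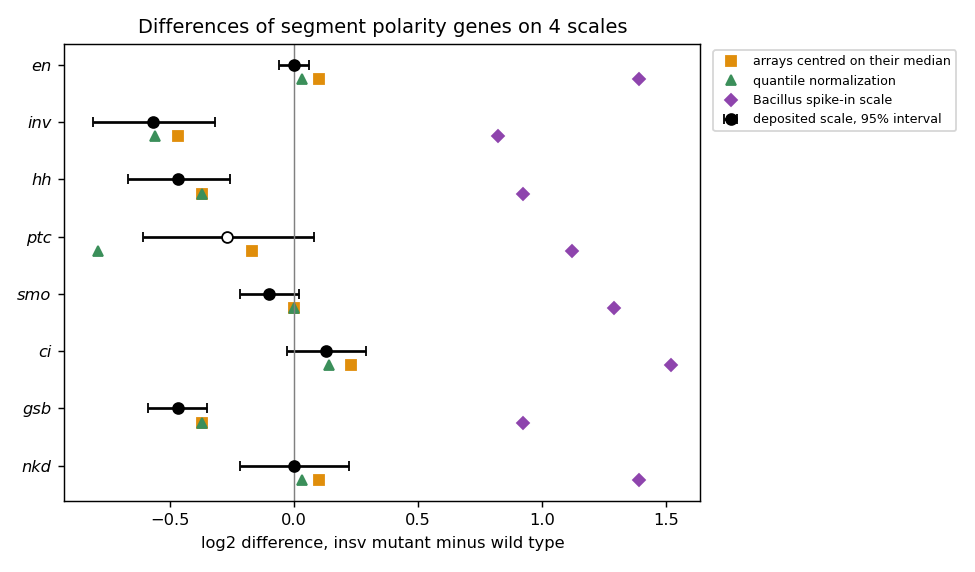
Log2 difference (insv mutant minus wild type) of the 8 measured genes on the deposited scale with 95% intervals (black, open for ptc, which was below the level for testing), and the same difference after median centring (orange squares), quantile normalization (green triangles) and on the Bacillus spike-in scale (purple diamonds). The values for inv, hh and gsb are below 0 on 3 scales and above 0 on the spike-in scale, where all 8 genes are above 0.

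Other genes of the Hedgehog pathway held further small falls, at about the share of the array as a whole. Of 17 tested, 7 were called lower (41.2%) and 0 higher on the deposited scale (median -0.17), and all 17 were called higher on the spike-in scale. Su(fu), which restrains Ci in the cytoplasm, read 8.2, 8.3 and 8.3 in the mutant, against 8.8, 8.7 and 8.8 in wild type (-0.50 ± 0.05 SE, limma adjusted p = 0.000501). The casein kinase gene dco differed by -0.47, the heparan sulfate polymerase gene ttv by -0.33 and the Hedgehog co-receptor gene boi by -0.20. After median centring boi no longer passed (adjusted p = 0.116), as was so after quantile normalization (adjusted p = 0.129). Centring left 3 genes of this list lower and 1 higher, and quantile normalization left 4 lower.

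For the Wingless pathway 12 other genes were tested, 5 of them called lower (41.7%) and 0 higher (median -0.13), while all 12 were called higher on the spike-in scale. The list holds 31 genes, so most of it was not tested, and 3 of the tested genes (dlp, slmb and CkIalpha) are also in the Hedgehog list. Hyrax (hyx), a nuclear partner of Armadillo, read 9.8, 9.9 and 9.8 in the mutant, against 10.4, 10.4 and 10.5 in wild type (-0.60 ± 0.05 SE, limma adjusted p = 0.000248). The genes for lipid modification and export of the ligand also fell: por differed by -0.50 and wls by -0.27. The casein kinase gene gish differed by -0.13, a call lost after median centring (adjusted p = 0.455) and quantile normalization (adjusted p = 0.065). The call of Axn (-0.30) was lost on both scales too (adjusted p = 0.0959 and 0.0814). Centring left 3 genes of this list lower and 0 higher. Quantile normalization gave 5 lower, among them Wnt6 and Notum, which lay at low levels and were not called on the deposited scale.

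Partners of Armadillo at adherens junctions moved both ways on the deposited scale and were all higher on the spike-in scale. The alpha-Cat gene, which links the junction to actin, differed by -0.40 (limma adjusted p = 0.00111) and p120ctn by -0.30 (adjusted p = 0.000187). The polarity gene baz was higher by 0.33 (adjusted p = 0.0262), a call lost without the filter on low values (adjusted p = 0.0913). The E-cadherin gene shg had a difference of -0.47 that did not pass (adjusted p = 0.0549), though it passed after quantile normalization (adjusted p = 0.0231).

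Other regulators of the segmental pattern included 3 falls among 9 tested genes (33.3%, beside 40.8% of all probe sets) and 0 rises (median 0.00), and all 9 were called higher on the spike-in scale. Median centring gave 2 higher and 2 lower calls, and quantile normalization 2 higher and 3 lower. Besides gsb-n, the falls were those of the pair-rule genes ftz (-0.50, limma adjusted p = 0.0119) and prd (-0.47, adjusted p = 0.0456, and 0.0957 after median centring). In a list of other epidermal signals 4 of 10 genes were tested. The BMP ligand gene dpp rose by 0.20 (adjusted p = 0.0135) and aos, an inhibitor of the EGF receptor, differed by -0.17 (adjusted p = 0.0111), with an adjusted p of 0.163 after median centring. All 4 were called higher on the spike-in scale, with dpp at 1.59 and aos at 1.22.

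Genes for the denticles and hairs that this pattern places on the cuticle included 3 rises of more than 2-fold. Of 8 tested, 4 rose (50%, beside 24.7% of all probe sets) and 0 fell (median 0.17), and all 8 were called higher on the spike-in scale, as were 92.6% of all. Both dyl and y reached the level for testing only on the mutant arrays, so the filter favours rises here. Without the filter 4 of the 12 measured genes were called higher and 0 lower (median 0.12). These were not the same 4 genes: tyn no longer passed (limma adjusted p = 0.142 without the filter). In its place zye, near the floor in both genotypes, passed with a difference of 0.50 (adjusted p = 0.0107). The share of all probe sets called without the filter was not computed. Unfiltered counts, here and below, therefore cannot be set against the array as a whole. The pigment gene y read 5.2, 5.4 and 5.2 in the mutant, against 3, 3 and 3.2 in wild type, a rise of 2.2. The zona pellucida domain genes dyl and mey, whose products shape the apical matrix, rose by 2.33 and 1.77, and tyn by 0.20 (limma adjusted p = 2.49e-06 to 0.0496 over the 4 genes). With wild-type levels of 2.4 to 2.5 for dyl and 3 to 3.2 for y, close to the floor, their differences may be understated, which was not tested. After quantile normalization they were smaller, 1.87 for dyl and 1.55 for y. The regulator ovo, whose product shavenbaby switches on such genes, had a difference of 0.13 that did not pass (adjusted p = 0.112).

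Markers of late embryonic tissue moved with genotype beside all of these results. All 9 tested late muscle genes of 14 listed rose, with a median of 3.43, and their summed level on the linear scale was 16400 to 17500 on the mutant arrays, against 3400 to 3610 on the wild-type arrays. They included Mlc1 (3.47), Tm2 (3.67), TpnC73F (3.43) and Prm (2.97). Summed levels, here and below, weigh the probe sets of highest level most, so they do not give the fold change of a list. Of 15 late cuticle and epidermal genes, all of them measured, 13 were called higher and 0 lower with or without the filter (median 2.63 over the 15), with a summed level of 12800 to 13000 in the mutant, against 1490 to 1550 in wild type. TwdlN rose by 4.87, TwdlM by 3.90, Cpr56F by 3.67 and Osi6 by 2.73, and ple lay at the floor on all arrays. Cpr56F, Osi9 and Ddc reached the level for testing only on the mutant arrays. The difference of Cpr56F, at 2.3 to 2.4 in wild type, may be understated, and it was 3.42 after quantile normalization. After quantile normalization 1 of these 13 was called lower. All tested genes of both late lists were called higher on the spike-in scale too.

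Cellularization-stage markers ran the other way on the deposited scale, and germ cell genes were called in both directions. Calls over all tested probe sets were 40.8% lower and 24.7% higher. All 3 tested cellularization-stage genes of 5 listed fell, with slam at -1.57, Sry-alpha at -0.67 and halo at -0.63, and a summed level of 202 to 215 in the mutant, against 341 to 369 in wild type. On the spike-in scale 2 of the 3 were called higher, and nullo and bnk lay at the floor on all arrays. Of 5 tested germ cell genes of 8 listed, osk (0.63) and gcl (0.40) rose while piwi (-1.50) and aub (-0.23) fell, and 4 of the 5 were called higher on the spike-in scale. The call of aub was lost after median centring (limma adjusted p = 0.116) and without the filter (adjusted p = 0.0683). Too low to be tested, vas read 2.3 on each mutant array, against 2.9, 2.9 and 3 in wild type (0.75 higher on the spike-in scale). The summed level of the measured germ cell genes was 4040 to 4140 in the mutant, against 3400 to 3860 in wild type. That sum includes ovo, the gene of highest level in the list, which did not pass and is also in the denticle list. The part of the tissue and stage markers in the differences of inv, hh and gsb was not tested.

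**Figure D5:**
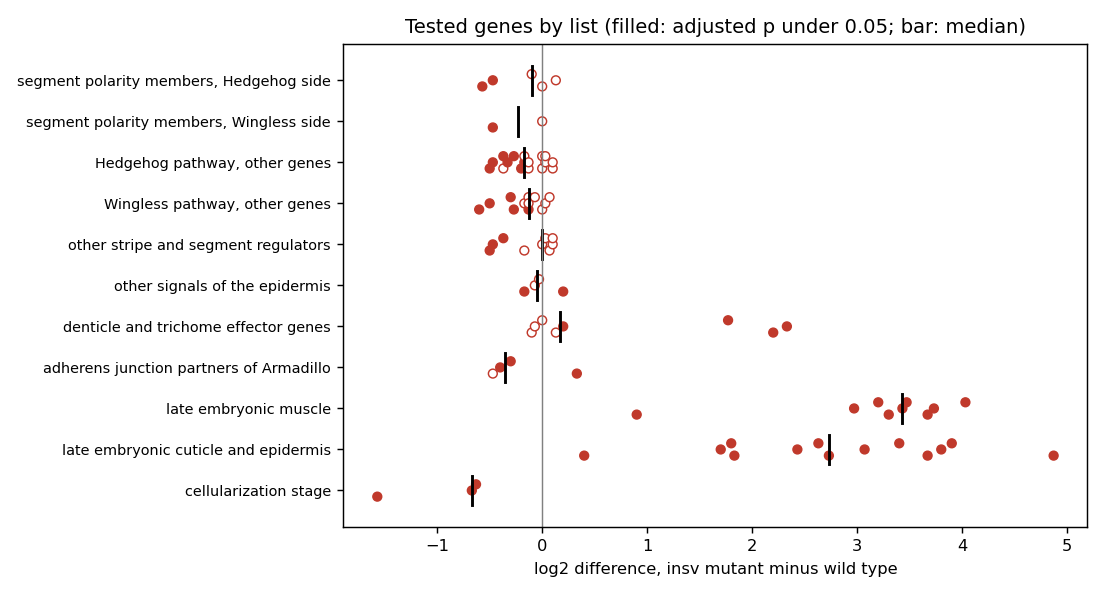
Log2 difference (insv mutant minus wild type, deposited scale) of the tested genes of each list except the germ cell list, which is not drawn. Each gene is 1 point, filled where the adjusted p is under 0.05, with the median of the list as a black bar. The segment polarity genes lie between -0.57 and 0.13, 3 denticle and trichome genes lie above 1, and late muscle (median 3.43) and late cuticle genes (median 2.73 over those tested) lie far to the right; on the spike-in scale all 7 tested segment polarity genes were called higher.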

How the data were processed

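The authors deposited log2 expression levels per probe set, made with GCRMA (version not given) per the submitters' processing notes. Their range, 2.2 to 15.1 with 1 decimal, fits a log2 scale and no centring. Of 18952 probe sets, 183 were controls and were left out of the tests, 13647 had 1 symbol, 402 several and 4720 none, and 13544 symbols were brought up to date by gene identifier with RefSeq (Release 6 plus ISO1 MT). Probe sets with a level of at least 4 on at least 3 arrays were tested (8334) with limma 3.58.1 in R 4.3.3 and no block, and p-values were adjusted over all of them. Pairs of genes were compared by exact permutation with scipy 1.17.1. The test was checked on simulated data. With values rounded to 1 decimal, it recovered 63% of log2 changes of 0.5 and 90% of log2 changes of 1, with 3.16% false calls. Of 8334 simulated probe sets 200 were changed, a far smaller part than the 65.5% called here, so the check does not cover that setting. The number of arrays limits the precision. The members and the lists were chosen with earlier results of these data known. Besides the members and insv, up to 4 genes per list with the smallest adjusted p were named. The genes shg, ovo, zye, eve, Notum, H15, ple, nullo, bnk, Osi9, Ddc, vas, Axn and Wnt6 were named after their values were seen. Planned pairs with wg and a motif search in promoters were not run. The alternatives were other filters, scales, priors, the replicate block and leaving out each array.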

Additional observations from a re-analysis of the deposited data

How the results depend on the processing

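The calls of inv, hh and gsb held under 14 of 15 alternatives each, with adjusted p of 0.000286 to 0.0235, and turned over on the spike-in scale, where the differences were 0.82, 0.92 and 0.92 (smo 1.29). That scale adds nearly 1 constant to every gene of a genotype. The 3 members called became 7 on that scale with 0 lower, 5 after median centring (en and ci higher) and 5 with the replicate block (ci, adjusted p = 0.0454, and smo, lower, adjusted p = 0.0178), and 3 to 4 without 1 array; the number called lower was 3 whichever array was left out. The Hedgehog side median of -0.18 was -0.10 at a minimum level of 6, -0.08 after median centring, 1.20 on the spike-in scale and -0.24 to -0.14 without 1 array. The Wingless side median of -0.23 was -0.17 after quantile normalization, -0.13 after median centring, 1.15 on the spike-in scale and -0.26 to -0.21 without 1 array. Same-numbered arrays of both genotypes had deviations that correlated at 0.166, -0.0145 and 0.271, and 3 of 6 arrays matched best with their own number, so the numbers were not taken as pairs. Values given to 1 decimal limit what can be seen for en and nkd, and the floor limits ptc. The call of en after median centring (difference 0.10, limma adjusted p = 0.012) came from the centring alone, since en read 11 on all 6 arrays.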

Other observations

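The en probe set was 1 of 56 tested probe sets (0.672%) with a single value on all 6 arrays. The nkd probe set was 1 of 101 (1.21%) with the same value in mutant and wild type at every replicate number, a count that includes the 56.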
